A study of Homo sapiens with 12 samples.

Results

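Control (siCtrl) libraries of K562 cells were compared with each other, with no knockdown in any of them. K562 is an erythroleukemia line derived from chronic myelogenous leukemia in blast crisis. Of the 12 libraries of the study, 4 are K562 siCtrl libraries, and their labels number them 1 to 4. Replicates 1 and 2 (set 1, n = 2) were compared with replicates 3 and 4 (set 2, n = 2). A library's set follows from its number in the labels. The cells of all 4 libraries had been transfected with a non-targeting siRNA pool and lipid reagent in RPMI 1640 medium with fetal calf serum, and total RNA was taken 72 h later. The 4 K562 libraries transfected with siRNAs against USP15 (siUSP15) carry the same replicate numbers, 2 in each set, and share no library with the controls. Neither the labels nor the methods say what separates the numbers, or whether the libraries of a set came from separate cultures. The name of the deposited table speaks of batch correction, and its column headers number the controls of the sets apart from each other with a gap between them, but no source names the batches. The columns used here hold raw counts. The p-values therefore measure only the spread between these libraries, and culture, transfection, library preparation and sequencing cannot be told apart as sources of a set difference.

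K562 cells grow under the BCR-ABL1 fusion kinase, which keeps STAT5 active without a cytokine. STAT5 in turn drives PIM1 and the feedback inhibitors CISH and SOCS. The line sits at an erythroid and megakaryocytic branch point and makes embryonic and fetal globins. A non-targeting siRNA pool loads into the RNA interference machinery without a designed target.

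The total count was 23020401 and 23539420 in set 1 and 26187019 and 26574436 in set 2. A level of 1 CPM (the count scaled to library size) thus stood for 23.02 to 26.57 reads before scaling. Genes with at least 1 count numbered 20737 to 20988. All 14 K562 identity markers, among them GATA1, TAL1 and the fetal globins, were expressed and tested. Of 31 markers of T, B and NK cells, stroma, epithelium, endothelium and liver, 7 had no row in the table or 0 counts in all 4 libraries, the endothelial marker CDH5 among them. Their summed level was 264.2 and 253.3 CPM in set 1 and 209.1 and 208.1 CPM in set 2, and KRT19 and EPCAM made up most of it. Of 9 such markers tested, 8 were lower in set 2 and none was higher, with a median log2 fold change of -1.05. In the quintile of all genes tested that holds their median level, 41.9% were lower and 14.8% higher. The T-cell receptor gene CD3D stood at 17.9 and 16.2 CPM in set 1 and at 4.84 and 4.21 CPM in set 2. Other T-cell markers were far lower. TRAC stood at 1.13 and 0.807 CPM in set 1 and at 0.496 and 0.565 CPM in set 2. CD3E, CD3G, CD2 and CD4 stayed under 1 CPM in all 4 libraries. EPCAM did not differ detectably (log2 fold change 0.0, adjusted p = 0.959). The part of these markers in the results below was not tested. In bulk RNA, fewer cells of a type and less RNA per cell cannot be told apart.

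Within a set the libraries differed by more than counting noise, but by far less than between sets. The chi-square per degree of freedom, which is 1 where 2 libraries differ by sampling alone, was 1.73 for replicates 1 and 2 and 2.34 for replicates 3 and 4. Across the sets it was 46.7 to 53.5 for the control pairs. The biological coefficient of variation, here the spread left within the sets beyond counting noise, was 2.32%. No pair was a copy of another, but a spread this small lets small differences pass the test.

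With the quasi-likelihood test of edgeR on 13927 genes, 8603 genes (61.8%) differed between the sets at an adjusted p under 0.05, and such genes are said to be called below. Of the genes tested, 30.7% were higher in set 2 (4278 genes) and 31.1% were lower (4325 genes). Log2 fold changes are set 2 minus set 1 and are given ± SE. Most differences were small, with a median absolute log2 fold change of 0.271. Past an absolute log2 fold change of 1 the split was uneven: 922 genes (6.62%) were lower and 192 (1.38%) were higher in set 2. Because a count is a share of its library, every change is relative to the other genes, whose median log2 fold change was -0.00735.

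The direction of a call depended on how strongly a gene was expressed. In the quintile of genes with the lowest average level, 8.69% were called higher and 26.2% lower. In the quintile with the highest level, 59.4% were called higher and 19% lower. Each list below is therefore set beside the shares called higher and lower in the quintile that holds the median level of its members. Protein-coding genes in the most GC-rich quintile had a median log2 fold change of -0.105 and those in the poorest quintile one of 0.0383, while the medians of the quintiles by transcript length lay between -0.0163 and 0.016.

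**Figure D1:**
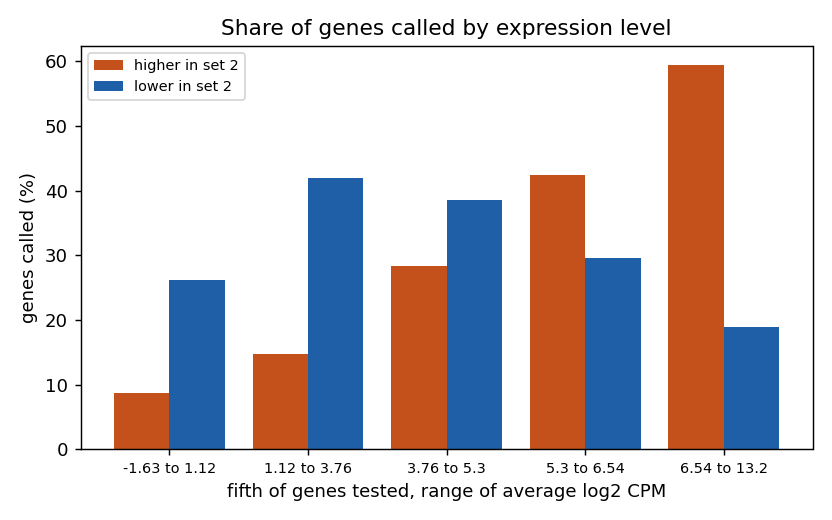
Percentage of genes called higher (orange) and lower (blue) in set 2 in siCtrl, in quintiles of the 13927 genes tested, ordered by average log2 CPM (horizontal axis, range of each quintile). The share called higher climbs from 8.69% to 59.4% from the lowest to the highest quintile.

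The mRNA of USP15, the ubiquitin protease that the study depleted, was itself higher in set 2 in control cells. It stood at 268 and 274 CPM in set 1 and at 346 and 332 CPM in set 2 (0.32 ± 0.035, adjusted p = 1.59e-09). Its libraries did not overlap between the sets, which was the case for 80.0% of all genes tested.

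Genes of JAK/STAT signaling were mostly lower in set 2. Of 30 members tested, 21 were called lower and 4 higher (SOCS6, SOCS4, PIM3 and PTPN11), against 29.6% lower and 42.4% higher in the quintile that holds their median level. The list median was -0.379. PIM1, a survival kinase at chr6:37170203-37175426 (GRCh38), stood at 738 and 701 CPM in set 1 and at 229 and 239 CPM in set 2 (-1.62 ± 0.035, adjusted p = 6.53e-26). Its level in set 1 was thus 3.08 times that in set 2. The sets did not overlap, as for 80.0% of all genes tested.

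Feedback inhibitors of the pathway differed in both directions, since SOCS4 and SOCS6 were called higher and SOCS3 and CISH lower. SOCS3, which binds and blocks JAK kinases, stood at 59.9 and 58.7 CPM in set 1 and at 11.3 and 10.9 CPM in set 2 (-2.42 ± 0.063). CISH, which blocks STAT5 docking at receptors, stood at 91.4 and 89.4 CPM against 38.1 and 38.6 CPM (-1.24 ± 0.046). Both changes were many times their standard error. IL2RG, the shared gamma chain of interleukin receptors, stood at 21.9 and 19.2 CPM in set 1 and at 7.48 and 7.49 CPM in set 2 (-1.46 ± 0.092). SOCS1, named here after its values had been seen, was lower as well (-2.33 ± 0.19).

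Chosen after their values were seen, JAK2 and STAT5B were both lower (each with a log2 fold change of -0.52), and the anti-apoptotic STAT5 target BCL2L1 had a log2 fold change of -0.51 ± 0.036. STAT5A stood at 561 and 569 CPM in set 1 and at 569 and 575 CPM in set 2, with no detectable difference (adjusted p = 0.63). BCR and ABL1, whose fused copy drives the line, had log2 fold changes of 0.05 ± 0.037 and -0.05 ± 0.035, neither of which passed the test.

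CISH is the textbook STAT5 target, and its promoter is printed here because it is one of 2 on the list that hold the STAT site. The letters TTCNNNGAA, the core of a STAT binding site (GAS), were searched on both strands in RefSeq promoters of GRCh38.p14, which run from 250 bases before to 50 bases after a gene's start. Of 27305 promoters, 7.94% held these letters, as did 2 of the 25 JAK/STAT members with a promoter entry, CISH and IL10RB. The CISH promoter held 4 such runs, none of which overlapped another, although the windows printed around them do. They are given 5′ to 3′ on the minus strand of chromosome 3, with the motif in capitals:
CISH, chr3:50611997-50612024: cgccccgttTTCCTGGAAagttcttgga
CISH, chr3:50611986-50612014: tcctggaaagTTCTTGGAAatctgtcaaa
CISH, chr3:50611885-50611913: cagcccgcggTTCTAGGAAgacgctgctt
CISH, chr3:50611868-50611896: aagacgctgcTTCCGGGAAgggctggaac

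**Figure D2:**
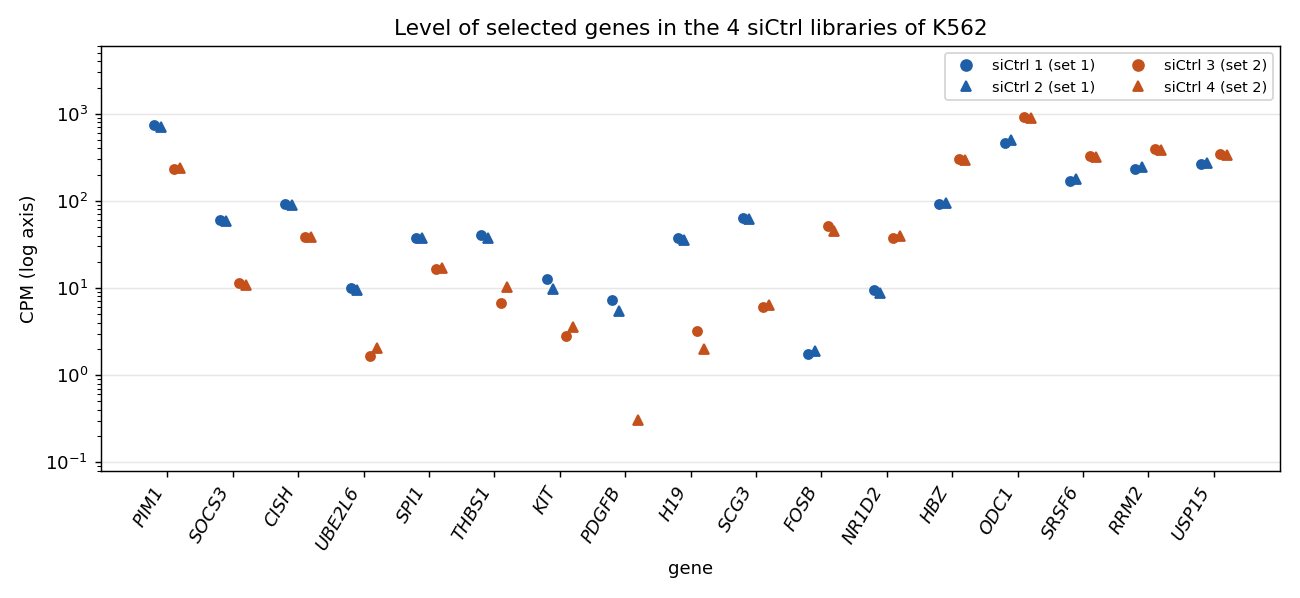
Level of 17 genes in CPM (log axis) in each of the 4 siCtrl libraries, set 1 in blue and set 2 in orange, circles for the first and triangles for the second library of a set. The libraries of a set lie close together. Those of the sets do not overlap for any gene shown, as for 80.0% of all genes tested. PDGFB in replicate 3 was 0 and is not drawn.

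Interferon-response genes were lower in set 2 or did not differ, and hardly any was higher. Of 37 members tested, 21 were called lower, 13 of them by over 1 on the log2 scale. Over all genes tested 6.62% were lower by over 1, and that share was not computed for the list's quintile. The 2 called higher, CMPK2 (0.26) and IRF1 (0.27), both lost the call under DESeq2. The list's median log2 fold change was -0.511, in a quintile where 41.9% of genes were called lower and 14.8% higher. UBE2L6, the conjugating enzyme for ISG15, stood at 10.0 and 9.38 CPM in set 1 and at 1.65 and 2.05 CPM in set 2 (-2.39 ± 0.15, adjusted p = 7.68e-15). IFITM2, a membrane protein that blocks virus entry, stood at 20.6 and 22.5 CPM against 7.84 and 8.8 CPM (-1.37 ± 0.089). It shares much sequence with IFITM1 and IFITM3, so its reads are uncertain.

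PARP14, a mono-ADP-ribosyltransferase, stood at 43.6 and 43.3 CPM in set 1 and at 23.1 and 24.6 CPM in set 2 (-0.86 ± 0.058). STAT2, a subunit of the interferon-stimulated factor ISGF3, stood at 79.7 and 71.2 CPM against 44.5 and 48.9 CPM (-0.69 ± 0.053). ISG15 did not differ detectably (-0.04 ± 0.12, adjusted p = 0.777). The immunoproteasome subunits PSMB8 and PSMB9 were near the floor: PSMB8 had 49 counts in set 1 and 4 in set 2, and PSMB9 had 23 counts and 1 count. Both passed the filter on low counts only through set 1, which fixed their direction.

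The interferon-stimulated response element, searched on both strands as TTTC, any 2 bases and TTTC, was held by 18 of the 31 members with a promoter entry and by 3.65% of all promoters. The list was put together by function, so this share describes the list and not the set difference. Of those 18, 11 were called lower and 0 higher, and 7 were not called. The windows below are given on each gene's own strand with the element in capitals, for 3 called members and for ISG15, which was not called and carries the element as well:
BST2, chr19:17405741-17405770, minus strand: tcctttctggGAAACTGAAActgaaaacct
PARP14, chr3:122680800-122680829, plus strand: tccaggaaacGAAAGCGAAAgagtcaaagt
PSMB8, chr6:32844032-32844061, minus strand: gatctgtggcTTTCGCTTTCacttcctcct
ISG15, chr1:1013380-1013409, plus strand: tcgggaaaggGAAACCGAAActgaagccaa
BST2, which tethers budding virus particles, stood at 84.8 and 82.1 CPM in set 1 and at 57.2 and 59.9 CPM in set 2 (-0.51 ± 0.044).

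Megakaryocyte and myeloid genes were lower in set 2. Of 10 megakaryocyte genes tested, 9 were called lower, 8 of them by over 1 on the log2 scale, and none was called higher. Their quintile had 41.9% lower and 14.8% higher, and over all genes tested 6.62% were lower by over 1. The list median was -1.34. THBS1, the platelet matrix protein thrombospondin 1, stood at 40.3 and 37 CPM in set 1 and at 6.74 and 10.2 CPM in set 2 (-2.19 ± 0.094). The thrombin receptor F2R stood at 59.8 and 55.5 CPM against 24.4 and 26.7 CPM (-1.17 ± 0.057). The collagen receptor GP6 (-1.33 ± 0.072) and the granule-release GTPase RAB27B (-1.59 ± 0.1) were lower too, and TUBB1, the platelet tubulin, was the member that was not called (0.14 ± 0.1).

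Among 8 genes of neutrophils, eosinophils and monocytes, 6 were called lower and 1, CD14, higher, in a quintile with 26.2% lower and 8.69% higher. Of the called genes, MPO, PRTN3 and CD14 passed the filter on low counts only through the set where they were higher. The filter thus fixed their direction, and their calls are not read as support. SPI1, the master factor of the myeloid lineage, stood at 37.4 and 37.3 CPM in set 1 and at 16.4 and 16.9 CPM in set 2 (-1.16 ± 0.063). Lysozyme (LYZ) stood at 25.2 and 22.7 CPM against 8.11 and 9.88 CPM (-1.41 ± 0.09). The granule proteases MPO and PRTN3 rested on few reads, with 31 and 27 counts in set 1 and 5 and 4 counts in set 2. CD14 rested on 7 counts in set 1 and 27 in set 2 and lost its call without replicate 1.

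Of 17 erythroid and progenitor regulators, 11 were called lower and 5 higher (RUNX1, EPOR, KLF1, LDB1 and ETV6), in a quintile with 29.6% lower and 42.4% higher. The largest decrease was that of KIT, the stem cell factor receptor, which stood at 12.7 and 9.8 CPM in set 1 and at 2.84 and 3.59 CPM in set 2 (-1.81 ± 0.14). HHEX stood at 120 CPM in both libraries of set 1 and at 50.4 and 49.9 CPM in set 2 (-1.26 ± 0.042). MYB, which holds progenitors in an undifferentiated state, stood at 284 and 288 CPM against 142 CPM in each library of set 2 (-1.01 ± 0.036, adjusted p = 6.77e-21). GATA2 went the same way (-0.67 ± 0.036). RUNX1 went the other way, from 61.2 and 60.5 CPM in set 1 to 102 and 108 CPM in set 2 (0.79 ± 0.043). The erythroid master factor GATA1 differed little (-0.13 ± 0.036).

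Of 8 globin genes tested, 5 (62.5%) were called higher and 1 lower, a share close to the 59.4% called higher in their quintile, with a median of 0.43. The embryonic zeta chain HBZ stood at 92 and 93.4 CPM in set 1 and at 302 and 292 CPM in set 2 (1.68 ± 0.038, adjusted p = 1.38e-25). Its level was thus 3.2 times higher in set 2. The alpha chains HBA2 (1.15 ± 0.047) and HBA1 (0.80 ± 0.04) and the fetal gamma chains HBG1 (0.48 ± 0.033) and HBG2 (0.38 ± 0.032) followed, though each of these pairs is nearly identical in sequence and the split of reads between its copies is uncertain. The embryonic epsilon chain HBE1 was the one called lower, with 867 and 801 CPM in set 1 and 499 and 521 CPM in set 2 (-0.71 ± 0.035).

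Of the heme and iron genes, 14 of 19 were called higher and 2 lower in a quintile with 42.4% higher. The transferrin receptor TFRC stood at 1212 and 1211 CPM in set 1 and at 1812 and 1753 CPM in set 2 (0.56 ± 0.03). FECH, which inserts iron into the ring, was higher (0.62 ± 0.039), as was the endosomal iron reductase STEAP3 (0.73 ± 0.046). Of 23 red cell membrane genes, 10 (43.5%) were called higher and 7 (30.4%) lower, against 59.4% and 19% in their quintile, with a median of 0.0577, which was -0.0108 in a fit with the replicate number as a block. ERMAP, a blood group membrane protein, was higher (0.69 ± 0.038) and DMTN, which bundles actin under the membrane, was lower (-0.90 ± 0.061).

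Genes of ribosome biogenesis, many of them MYC targets, were higher in set 2 almost without exception. Of 38 tested, 36 were called higher and 1 lower, against 59.4% higher in the quintile of the most expressed genes. The list median of 0.541 was the highest of the 37 lists. The one called lower was MYC itself, which stood at 411 and 392 CPM in set 1 and at 238 and 247 CPM in set 2 (-0.73 ± 0.035, adjusted p = 2.44e-17), and POLR1B was not called. ODC1, the first enzyme of polyamine synthesis, stood at 460 and 505 CPM against 920 and 890 CPM (0.91 ± 0.036). UTP20, part of the small subunit processome, stood at 85.5 and 90.1 CPM in set 1 and at 168 and 174 CPM in set 2 (0.96 ± 0.04). WDR43 (0.77 ± 0.041) and the nucleolar chaperone NPM1 (0.54 ± 0.032) were higher too.

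The MYC binding site CACGTG, an E-box that reads the same on both strands, occurred in 11 of the 31 of these genes with a promoter entry and in 7.27% of all promoters. All 11 were called higher, as were nearly all members without it. Of the 4 members with the lowest p, 3 hold one, and their windows, again with the motif in capitals and on the gene's own strand (for ODC1 the nearer of 2), were:
ODC1, chr2:10447990-10448019, minus strand: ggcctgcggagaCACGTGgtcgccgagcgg
UTP20, chr12:101280083-101280112, plus strand: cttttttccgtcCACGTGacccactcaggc
WDR43, chr2:28894658-28894687, plus strand: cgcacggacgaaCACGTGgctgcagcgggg

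Splicing factors of the SR and hnRNP families were higher nearly throughout, with 41 of 44 called higher and 1, HNRNPLL, lower (list median 0.382), against 59.4% higher in their quintile. SRSF6 stood at 168 and 178 CPM in set 1 and at 323 and 316 CPM in set 2 (0.88 ± 0.036). HNRNPU (0.60 ± 0.031), HNRNPM (0.62 ± 0.033) and HNRNPDL (0.58 ± 0.034) followed.

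Other parts of the protein-making machinery differed less. Of 81 cytosolic ribosomal protein genes, 52 (64.2%) were called higher, close to the 59.4% of the quintile they lie in, with a median of only 0.109. RPS26 (0.46 ± 0.038) and RPS2 (0.32 ± 0.03) led them, and RPL39L was the one called lower. Mitochondrial ribosomal proteins had 53 of 77 members higher and 1 lower (median 0.222), against 42.4% higher in their quintile, led by MRPL20 (0.62 ± 0.039) and MRPL1 (0.68 ± 0.052). Host transcripts of small nucleolar RNAs had 12 of 20 higher in a quintile with 28.3% higher, with SNHG12 at 36 and 38.1 CPM in set 1 and 76.3 and 67.6 CPM in set 2 (0.96 ± 0.055), and 1 lower, SNHG15 (-0.55 ± 0.051). Proteasome genes had 36 of 45 higher and 5 lower (median 0.226) in a quintile with 59.4% higher, with PSMB2 at 0.43 ± 0.032. The 5 were PSMB8, PSMB9, PSMB10, PSME1 and PSME4, all but PSME4 known as interferon-inducible. PSMB8 and PSMB9 passed the filter on low counts only through set 1, which fixed their direction.

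Replication genes were higher in set 2 by small amounts. Of 47 tested, 38 were called higher and 2 lower (RPA3 at -0.46, and RFC5 at -0.11, which lost its call under 5 alternatives), with a median of 0.198 and 59.4% higher in their quintile. RRM2, the regulated subunit of ribonucleotide reductase, stood at 233 and 245 CPM in set 1 and at 399 and 386 CPM in set 2 (0.72 ± 0.035). GINS3 (0.89 ± 0.054), a subunit of the replicative helicase, the histone mRNA binding protein SLBP (0.60 ± 0.038) and the helicase subunit MCM4 (0.46 ± 0.032) followed. Mitotic genes had 23 of 40 higher and 3 lower, close to the 59.4% of their quintile, with PLK1 at 0.61 ± 0.036 and CENPF at 0.52 ± 0.037.

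Histone genes, whose mRNAs mostly lack a poly(A) tail, had 10 of 32 (31.2%) called lower and 3 higher, fewer than the 41.9% lower in their quintile. Among those lower were HIST2H2BE (51.4 and 50.7 CPM against 28.2 and 27.3 CPM) and HIST1H1C (-0.33 ± 0.035). Of 18 p53 target genes, 11 were called lower and 3 higher (MDM2, AEN and BBC3), in a quintile with 29.6% lower. GADD45A, a stress-induced growth arrest gene, stood at 140 and 137 CPM in set 1 and at 77.7 and 74 CPM in set 2 (-0.87 ± 0.04). GDF15 (-1.08 ± 0.057) and BTG2 (-0.75 ± 0.05) were lower, whereas MDM2, the ubiquitin ligase of p53, was higher (0.46 ± 0.037). K562 cells are known to lack functional p53.

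Mitochondrially encoded transcripts took a smaller share of the reads in set 2. They made up 4.828% and 4.979% of all counts in set 1 and 3.203% and 3.262% in set 2. Of the 13 genes, 12 were called lower, with a median of -0.396, in a quintile with 19% lower. MT-CO2 stood at 4930 and 4931 CPM in set 1 and at 3038 and 2993 CPM in set 2 (-0.71 ± 0.028), and MT-ND4 at 11279 and 11197 CPM against 7298 and 7269 CPM (-0.63 ± 0.026). MT-ND6, the only protein gene on the light strand, was the one called higher, with 222 and 213 CPM in set 1 and 296 and 386 CPM in set 2 (0.65 ± 0.061). The counting is not stated to use strand, so its reads and those of transcripts from the opposite strand cannot be told apart. Nuclear-encoded genes of the respiratory chain had 39 of 75 (52%) called higher and 7 lower (median 0.0958), against 59.4% and 19% in their quintile. The part of the mitochondrial read share in the other set differences was not tested.

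Genes of cholesterol and fatty acid synthesis were mostly lower in set 2. Of 35 tested, 24 were called lower and 3 higher, PMVK and ACACA among them, in a quintile with 19% lower. INSIG1, the sterol-sensing anchor of the pathway's regulator SREBP, stood at 614 and 533 CPM in set 1 and at 212 and 213 CPM in set 2 (-1.43 ± 0.043). The sterol oxidase MSMO1 stood at 144 and 138 CPM against 57.3 and 53.3 CPM (-1.35 ± 0.043). FADS1, a fatty acid desaturase (-1.09 ± 0.033), and ACSS2, which makes acetyl-CoA from acetate (-1.05 ± 0.049), were lower as well. HMGCS1, an early enzyme of the same pathway, differed far less (-0.11 ± 0.035) and lost its call without replicate 1.

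Of 20 genes of sugar uptake and glycolysis, 12 (60%) were called higher and 5 (25%) lower, close to the 59.4% and 19% of their quintile. The glucose transporter SLC2A3 stood at 306 and 307 CPM in set 1 and at 137 and 140 CPM in set 2 (-1.15 ± 0.036). HK2, which traps glucose as glucose phosphate, stood at 97.6 and 95.2 CPM against 185 and 184 CPM (0.94 ± 0.038), and GAPDH (0.61 ± 0.03) and the lactate carrier SLC16A1 (0.68 ± 0.035) were higher too. Hypoxia-response genes had 8 of 22 higher and 12 lower, against 42.4% and 29.6% in their quintile, with BHLHE40 at -0.82 ± 0.039 and KDM3A at 0.70 ± 0.042.

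Lysosome and autophagy genes had 20 of 29 members lower and 4 higher (LAMP1, SQSTM1, MAP1LC3B and LAMP2), against 29.6% lower in their quintile. The lysosomal proteases CTSB (189 and 184 CPM in set 1, 121 and 125 CPM in set 2) and CTSL (-0.54 ± 0.04) were among the 4 with the lowest p, and the largest decrease on the list was -1.44. Amino acid transporters had 11 of 16 higher and 3 lower in a quintile with 59.4% higher, with SLC3A2 at 207 and 213 CPM in set 1 and at 345 and 341 CPM in set 2 (0.71 ± 0.034) and its partner chain SLC7A5 at 0.67 ± 0.034. The ATF4 stress response list had 17 of 37 higher and 11 lower, against 59.4% and 19% in its quintile, with a median of 0.0653. Its cystine carrier SLC7A11 (0.69 ± 0.042) was also in the NRF2 antioxidant list, where 12 of 19 were higher and 4 lower, close to the 59.4% and 19% of its quintile, and GCLC, the first enzyme of glutathione synthesis, stood at 16 and 15.3 CPM in set 1 and at 40 and 37.7 CPM in set 2 (1.31 ± 0.066).

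Of 21 heat shock genes, 13 (61.9%) were called higher, close to the 59.4% of their quintile, and 6 lower (HSPA6, CRYAB, HSPA1B, DNAJB1, HSPA1A and BAG3), and HSPA1A and HSPA1B are near-identical copies. HSPA8, the constitutive Hsp70, stood at 2566 and 2768 CPM in set 1 and at 4001 and 3956 CPM in set 2 (0.58 ± 0.031), with DNAJA1 (0.52 ± 0.035) and HSP90AB1 (0.40 ± 0.028). HSPA6, an Hsp70 made only under stress, stood at 5.69 CPM in both libraries of set 1 and at 0.748 and 1.00 CPM in set 2 (-2.69 ± 0.2). The heat shock element, searched on both strands as GAA, TTC and GAA with any 2 bases between neighbors, occurred in 6 of 18 members with a promoter entry and in 0.502% of all promoters. It stood in front of members that moved in opposite directions:
HSPA6, chr1:161524458-161524486, plus strand: cggaaaggTTCGCGAAAGTTCgcggcggc
HSPA8, chr11:123062171-123062199, minus strand: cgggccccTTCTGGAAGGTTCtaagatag
Chaperones of the endoplasmic reticulum had 12 of 22 higher and 1 lower in a quintile with 42.4% higher, led by CANX (0.44 ± 0.033).

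Immediate early genes, which answer growth factor and stress signals within minutes, held the largest increase among genes named by size. FOSB, at chr19:45467995-45475179, stood at 1.73 and 1.91 CPM in set 1 and at 51.8 and 45 CPM in set 2 (4.73 ± 0.11, adjusted p = 2.76e-25). This is a 26.6 fold difference. Genes named by size were chosen to have no overlap between the sets. FOS stood at 4.26 and 4.86 CPM against 14.4 and 14.1 CPM (1.65 ± 0.11), and FOSL1 at 26.2 and 28.3 CPM against 55.2 and 55.9 CPM (1.03 ± 0.054). The partner JUN (0.69 ± 0.049) and DUSP1, the phosphatase that switches off MAP kinases (1.02 ± 0.075), were higher as well. EGR1 was lower (-0.21 ± 0.041). Over the list, 14 of 27 were called higher and 7 lower (median 0.157), against 28.3% higher in their quintile.

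The palindrome TGACGTCA, a cAMP response element, was held by 1.94% of all promoters and by 2 of 22 members with an entry, DUSP1 and JUND, of which DUSP1 was called. The window of DUSP1 was:
DUSP1, chr5:172771302-172771331, minus strand: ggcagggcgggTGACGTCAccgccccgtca

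The NF-kB and FOXO lists and the targets of TGF-beta and BMP had members in both directions, and the quintile of all 3 had 28.3% higher and 38.6% lower. NF-kB genes had 9 of 25 higher and 11 lower, with NFKB1 at 0.80 ± 0.055 and ICAM1 at -0.79 ± 0.062. FOXO and nutrient-responsive genes had 8 of 24 higher and 11 lower, with the death gene BCL2L11 at 0.70 ± 0.052 and YPEL3 at -1.41 ± 0.16. TGF-beta and BMP targets had 6 of 24 higher and 9 lower, and the largest differences among them were decreases. ID1, the classic BMP target, stood at 51.7 and 49 CPM in set 1 and at 13.8 and 14.3 CPM in set 2 (-1.84 ± 0.063), and the integrin chain ITGB5 at 68 and 64.1 CPM against 22.3 and 23.8 CPM (-1.52 ± 0.055).

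Components of RNA interference, through which every siRNA acts, had 6 of 13 members (46.2%) higher and 1 lower, close to the 42.4% higher of their quintile. TNRC6A, the scaffold of the silencing complex, was higher (0.40 ± 0.039), as was the slicing Argonaute AGO2 (0.42 ± 0.048), and AGO4 was lower (-0.57 ± 0.063). Of 7 small RNAs without a poly(A) tail that had enough reads, 1 was called, SNORD17 (0.76 ± 0.33), and it lost the call under 8 alternatives.

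Among the largest decreases were genes that share no list. PDGFB, the B chain of platelet-derived growth factor, lies at chr22:39223359-39244751. It had 304 counts in set 1 and 8 in set 2, all of them in replicate 4 (7.25 and 5.48 CPM against 0 and 0.309 CPM). H19, an imprinted noncoding RNA, stood at 37.6 and 35.8 CPM in set 1 and at 3.23 and 1.97 CPM in set 2 (-3.82 ± 0.11, adjusted p = 5.63e-23). SCG3, a protein of secretory granules, stood at 63.6 and 61.5 CPM against 6.1 and 6.33 CPM (-3.33 ± 0.071). Genes named by size had to be called, have an average log2 CPM of at least 1 and not overlap between the sets. The lack of overlap in these 3 genes follows from that choice. The unconventional myosin MYO3B (-3.35 ± 0.19), the Fc receptor FCGR2B (-3.01 ± 0.25) and the orphan nuclear receptor ESRRB (-2.50 ± 0.087) were also among the 15 largest decreases.

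The largest increases after FOSB were more modest. NR1D2, the clock repressor REV-ERB beta, stood at 9.48 and 8.8 CPM in set 1 and at 37.6 and 39 CPM in set 2 (2.07 ± 0.074). PER2, another clock repressor, stood at 11 and 11.1 CPM against 31 and 29.4 CPM (1.45 ± 0.074). The neurofilament gene NEFH (1.74 ± 0.053), the stress factor ATF5 (1.60 ± 0.053), the zinc exporter SLC30A1 (1.49 ± 0.046) and the purine receptor P2RY11 (1.78 ± 0.13) were others among the 15.

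The same replicate numbers were compared in the siUSP15 libraries, which share no sample with the controls but share the sets. There 5145 of 13940 genes (36.9%) were called, 17.7% higher and 19.2% lower in set 2, and 4.12% of genes were called with an absolute log2 fold change over 1. Of the 4271 genes called higher in siCtrl and tested in both, 48.1% were also called higher in siUSP15 and 13 genes were called the opposite way. Of the 4193 called lower, 54.5% were also called lower and 39 the opposite way. Read from the other side, 85.4% of the 5076 siUSP15 calls that were tested in siCtrl were called there in the same direction. Among genes called with an absolute log2 fold change over 1 in siCtrl, none was called the opposite way, and the medians were 1.267 and -1.369 in siCtrl against 0.8291 and -0.8653 in siUSP15. Since these genes were chosen by their siCtrl values, a smaller median in siUSP15 follows in part from the choice and is not read as a difference. Across 13650 genes, which are not independent replicates, the log2 fold changes had a Pearson correlation of 0.776.

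FOSB had nearly the same difference in both (4.73 and 5.02), as did THBS1 (-2.19 and -2.20), ID1 (-1.84 and -1.91) and MYB (-1.01 and -1.08). By list, the medians in siUSP15 were -0.814 for megakaryocyte, -0.174 for JAK/STAT, -0.44 for interferon, -0.655 for mitochondrially encoded, 0.252 for ribosome biogenesis and 0.201 for splicing factor genes, each with the sign it had in siCtrl. For cholesterol and fatty acid synthesis the median was -0.0341, and for FOXO and nutrient-responsive genes it was 0.238 against -0.225 in siCtrl. USP15 was higher in set 2 there too, by 0.63 against 0.32 in the controls. It is the target of the siRNA in these libraries and stood at 115 and 134 CPM in set 1 and at 191 and 196 CPM in set 2. A set difference and an unequal depth of knockdown cannot be told apart for it there.

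The interaction of set and siRNA, tested over all 8 K562 libraries, was called for 1791 of 14337 genes (12.5%), with 5.73% higher and 6.77% lower in siUSP15 than in siCtrl. This count rested on single libraries, since it was 479 without siCtrl replicate 1 and 2794 without siUSP15 replicate 1. FN1 (fibronectin), the kinase YES1 and the growth factor MDK (midkine) were called in opposite directions, with log2 fold changes of -0.89, -0.63 and 0.53 in siCtrl and 0.41, 0.13 and -0.23 in siUSP15. MSMO1 (-1.35 against -0.41), EPHB6 (-1.41 against -0.43) and NEFH (1.74 against 0.52) kept their direction with a smaller difference in siUSP15. HMGCS1, lower in the controls, was higher in set 2 in siUSP15 (0.52). GEMIN5 (0.70 against 0.12), MBNL1 (0.71 against 0.16) and TMCO1 (0.75 against 0.04) also had a smaller difference in siUSP15.

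**Figure D3:**
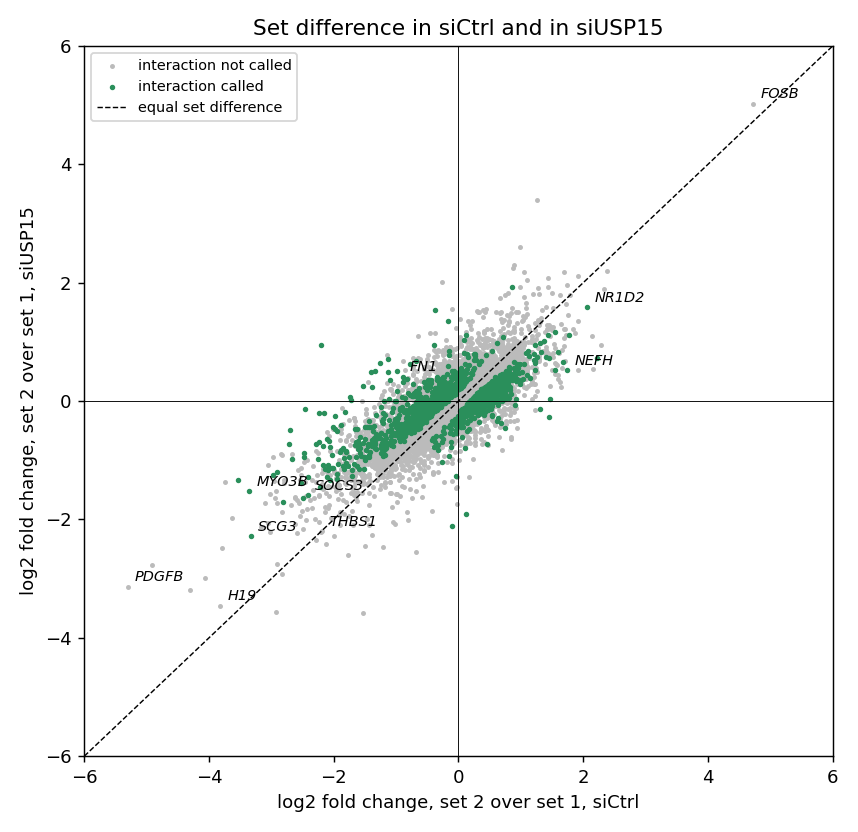
Log2 fold change, set 2 over set 1, of 13650 genes in siCtrl (horizontal axis) and in siUSP15 (vertical axis); green points were called in the test of the interaction, and the dashed line marks equal differences. The Pearson correlation is 0.776, and many points lie nearer to 0 in siUSP15. Of the genes called higher in siCtrl 90% keep their direction in siUSP15, and of those called lower 91.4% do.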

How the data were processed

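Total RNA of K562 cells was sequenced 72 h after transfection. The deposited count table holds raw read counts per gene for each library. Per the labels and the submitters' processing notes, the authors aligned reads with TopHat2 2.1.0 to hg38 and counted them per Ensembl gene. The notes name HTSeq and the methods another counter, and whether counting used strand is not given in the sources used here. Reads of near-identical copies (globin pairs, IFITM genes, HSPA1A and HSPA1B, histones) and of overlapping or antisense genes are therefore uncertain. The table's log2 CPM columns and the authors' own fold changes and p-values were not used, nor was the KBM7 table.

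Counts were tested with edgeR 4.0.16 (filterByExpr, TMM, quasi-likelihood F test, R 4.3.3) on the 4 control libraries, and likewise on the 4 siUSP15 libraries and, for the interaction, on all 8. P-values were adjusted by Benjamini-Hochberg over all genes tested, and genes under 0.05 were called. The filter on low counts asked for enough reads in as many libraries as a set holds. A gene could thus be tested through a single set, which fixed its direction. CPM values are TMM-scaled, except summed marker levels and those of TRAC, CD3E, CD3G, CD2 and CD4. Alternatives used DESeq2 1.42.0 and limma 3.58.1. The code was tested on simulated data.

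The sets, gene lists and tests were chosen with earlier results of these data known. Named genes were USP15, the 15 largest increases and decreases, the 4 members of each list with the lowest p and 5 interaction genes per direction, and some genes this rule names are not reported here. Others were chosen after their values were seen, among them SOCS1, STAT5A, KIT, GATA1, BST2, ISG15, DUSP1, EGR1, MT-ND6 and NPM1. Promoter sequences are from RefSeq (GRCh38.p14).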

Additional observations from a re-analysis of the deposited data

Results flagged for a closer look

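The difference between the sets was itself different in siCtrl and siUSP15 for 1791 genes by the edgeR test of the interaction. Of the 149 genes given with values, 73 were among them, and 70 of these had the larger absolute difference in siCtrl and 3 in siUSP15. Most of the 149 genes were chosen by their siCtrl values, which favors a larger difference in siCtrl, so nothing is read from this split. All 73 kept the sign of the interaction in each of the 8 fits that left out 1 library, and 42 were called the same way in all 8. The 73 were chosen by the fit of all 8 libraries, and each of these fits reuses most of them. Kept signs and calls are therefore favored by the choice and are not independent support. Values below are the log2 set difference in siUSP15 minus that in siCtrl.

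Values under 0 were found for NEFH (-1.21), HBZ (-1.01), ATF5 (-0.76), HBA2 (-0.76), MDK (-0.75), PER2 (-0.71), TMCO1 (-0.70), FOSL1 (-0.64), NFKB1 (-0.57), GEMIN5 (-0.56), MBNL1 (-0.54), HBA1 (-0.49), HSPA8 (-0.48), STEAP3 (-0.47) and NR1D2 (-0.47). The next were ODC1 (-0.45), MRPL20 (-0.43), ADD2 (-0.40), RRM2 (-0.38), PLK1 (-0.38), PSMB2 (-0.37), GAPDH (-0.36), SLC16A1 (-0.35), HNRNPM (-0.34), DNAJA1 (-0.32), GINS3 (-0.32), MRPL1 (-0.32), GCLC (-0.32), CANX (-0.31) and HBG1 (-0.31). Smaller ones were those of RPS26 (-0.30), HK2 (-0.30), HNRNPU (-0.27), BCL2L11 (-0.26), TFRC (-0.26), WDR43 (-0.26), SLC7A5 (-0.23), NPM1 (-0.23), HNRNPDL (-0.22), MCM4 (-0.22), SLBP (-0.22), SRSF6 (-0.22), HSP90AB1 (-0.21) and STAT5A (-0.18). MDK was called higher in siCtrl and lower in siUSP15.

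Values over 0 were found for MYO3B (1.85), FN1 (1.32), SCG3 (1.06), INSIG1 (1.00), EPHB6 (0.99), KIT (0.98), MSMO1 (0.95), ESRRB (0.88), RAB27B (0.87), SOCS3 (0.85), YES1 (0.77), HMGCS1 (0.64), LYZ (0.58), GDF15 (0.57) and PIM1 (0.54). Smaller ones were those of ACSS2 (0.53), GADD45A (0.50), BHLHE40 (0.47), SPI1 (0.47), F2R (0.41), ITGB5 (0.40), CISH (0.37), PARP14 (0.36), FADS1 (0.36), USP15 (0.32), DMTN (0.31), RPA3 (0.30), STAT5B (0.26) and CTSL (0.24). Most of these genes were lower in set 2 in siCtrl, with USP15 as an exception. No cause was tested for any of these values.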

How the results depend on the processing

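The 8603 genes called between the control sets were 8623 with RLE size factors, 7189 without a filter on low counts, 6385 with DESeq2, 8566 with limma-voom, 7943 in a fit of all 8 libraries and 7307 at an adjusted p under 0.01, all within 1.5 times. With an absolute log2 fold change over 1 required as well they were 1114, and with 1 control library left out 7570 to 8014. In the siUSP15 libraries the 5145 calls were 3423 with DESeq2 and 3492 to 4866 with 1 library left out. The interaction was called for 1132 genes with DESeq2 and for 479 to 2794 with 1 library left out. It was 479, 964, 630 and 1177 without siCtrl replicates 1 to 4, and 2794, 760 and 837 without siUSP15 replicates 1, 2 and 4.

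No source says that equal replicate numbers mark a shared culture or day. With the replicate number as a block over all 8 K562 libraries 7303 genes were called, FN1, MDK and YES1 lost their calls, HMGCS1 turned to 0.196 and the median of the red cell membrane list to -0.0108. The NF-kB list median was 0.0216 without siCtrl replicate 3 and -0.191 without siCtrl replicate 2. Of 210 genes named by rule or in the text, 200 were called. Of these, 9 lost or reversed the call under an alternative, namely FN1, MDK, YES1, HMGCS1, SNORD17, CD14, CMPK2, IRF1 and RFC5. Most of the 200 were chosen for a low p or a large difference in the main fit. Their share of kept calls therefore does not describe the other called genes. ABL1, BCR and TUBB1 gained a call without 1 library and POLR1B with the block. Of 370 list medians recomputed, 255 stayed within the spread between the libraries of a set, 113 moved and 2 reversed. Each of the 37 lists moved or reversed under at least 1 alternative. The causes were not tested. With 2 libraries a set, an exact 2-sided permutation test of 1 gene cannot go below p = 0.333.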

Other observations

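Some genes outside the lists were looked at after their values were seen. Beside NR1D2 and PER2, 2 further clock output genes were picked in this way, and both were higher in set 2. No list of clock genes was counted, so these genes do not show how clock genes differed as a group. NR1D1 (REV-ERB alpha) stood at 10.0 and 8.55 CPM in set 1 and at 16.9 and 15.6 CPM in set 2, and TEF, a PAR bZIP factor, had a log2 fold change of 0.79.

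Of the antigen presentation genes, 2 were looked at, and both were lower in set 2. HLA-E, a nonclassical class I molecule, stood at 39 and 40.1 CPM in set 1 and at 26 and 25.7 CPM in set 2 (log2 fold change -0.61), and the light chain B2M stood at 323 and 322 CPM against 269 and 263 CPM (-0.28). All of these passed the edgeR test across all genes.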
